A study of Mus musculus with 8 samples.

Results

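The 10 genes *Spry1*, *Spry2*, *Spry4*, *Spred1*, *Spred2*, *Dusp4*, *Dusp6*, *Etv1*, *Etv4* and *Etv5* were taken by name from the 54532 genes in the deposited count table. All 10 passed the filter on low counts, which left 17998 genes to test. Bulk RNA-seq of the mouse retina compared 4 *Mettl3*-CKO samples with 4 control samples, to ask how loss of *Mettl3*, which encodes the catalytic subunit of the m6A methyltransferase complex, alters retinal gene expression. *Mettl3*-CKO pups carried *Six3-Cre*, which recombines in retinal progenitor cells (RPCs), together with floxed *Mettl3* on both alleles. The study describes efficient knockout in the central retina, and the libraries were made from retinas with no stated separation of centre and periphery. Controls were their littermates, whose exact genotype is not given in the sources used here. The sample labels give postnatal day 7 for both groups, while the methods section gives day 6. Retinal cells that do not descend from RPCs, such as vessels, astrocytes and microglia, lie outside the Cre lineage, and their RNA is part of each sample. Nothing states that each sample came from a separate pup, so p-values measure only the spread between these samples.

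Fibroblast growth factors (FGFs) and other growth factors bind receptor tyrosine kinases, which switch on RAS and a kinase cascade that ends in the MAP kinase ERK. ERK signalling raises the transcription of its own inhibitors, and the level of these transcripts is widely used as a readout of the pathway. Sprouty and Spred proteins act between the receptor and RAF, DUSP phosphatases remove phosphates from ERK, and ETV1, ETV4 and ETV5, the PEA3 subfamily of ETS transcription factors, carry the signal to target genes. In the eye, FGF signalling takes part in specifying the neural retina and in the behaviour of RPCs.

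Among the 10 genes, *Etv4* rose and *Etv1* and *Spry1* fell with loss of *Mettl3*, and the other 7 did not pass the test, for which the adjusted p had to be under 0.05. The 3 called genes are to be read beside the 10.5% of all tested genes that were called, 6.49% of all tested genes higher and 4.05% lower (quasi-likelihood test of edgeR, adjusted by Benjamini-Hochberg over all tested genes). The same 3 genes were those whose *Mettl3*-CKO range did not overlap the control range, which held for 17.4% of all tested genes, 9.77% higher and 7.58% lower. DESeq2, which called 8.38% of its tested genes higher and 5.79% lower, and limma voom, which called 6.38% and 3.83%, called the same 3 members. Log2 fold changes of the 10 genes lay between -0.44 and 0.68, 6 above and 4 below 0, with a median of 0.07 beside a median of -0.01 over all tested genes. The feedback inhibitors and the ETS factors thus did not move as a block, and members of both families lay on either side of 0.

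Each sample held 16227095 to 20281517 counts in all, and the 10 genes had between 77 and 2351 counts in a sample, far above the 3 counts taken as the floor of detection, which equal at most 0.184 CPM, the count as a share of the library scaled by edgeR's TMM method. *Mettl3* itself was at 21.1 to 29.6 CPM in *Mettl3*-CKO samples and 29.3 to 33.8 CPM in controls. Its log2 fold change was -0.38 with a standard error (SE) of 0.12 and did not pass the test (adjusted p = 0.0602, edgeR). *Mettl3*-CKO replicate 2, at 29.6 CPM, was above control replicates 3 and 4, at 29.4 and 29.3 CPM. The count covers the whole gene, and the deleted segment was not measured separately. Markers of rods, RPCs and Müller glia were detected in every sample. Among the controls, replicate 4 held lens RNA, with 2666 CPM summed over 9 lens markers against 4.51 to 53.2 CPM in the other 7 samples, and replicate 1 had the lowest summed RPC markers and the highest summed rod and Müller glial markers of the controls. Values without control replicates 1 and 4 are given beside the genes that were called.

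**Figure D1:**
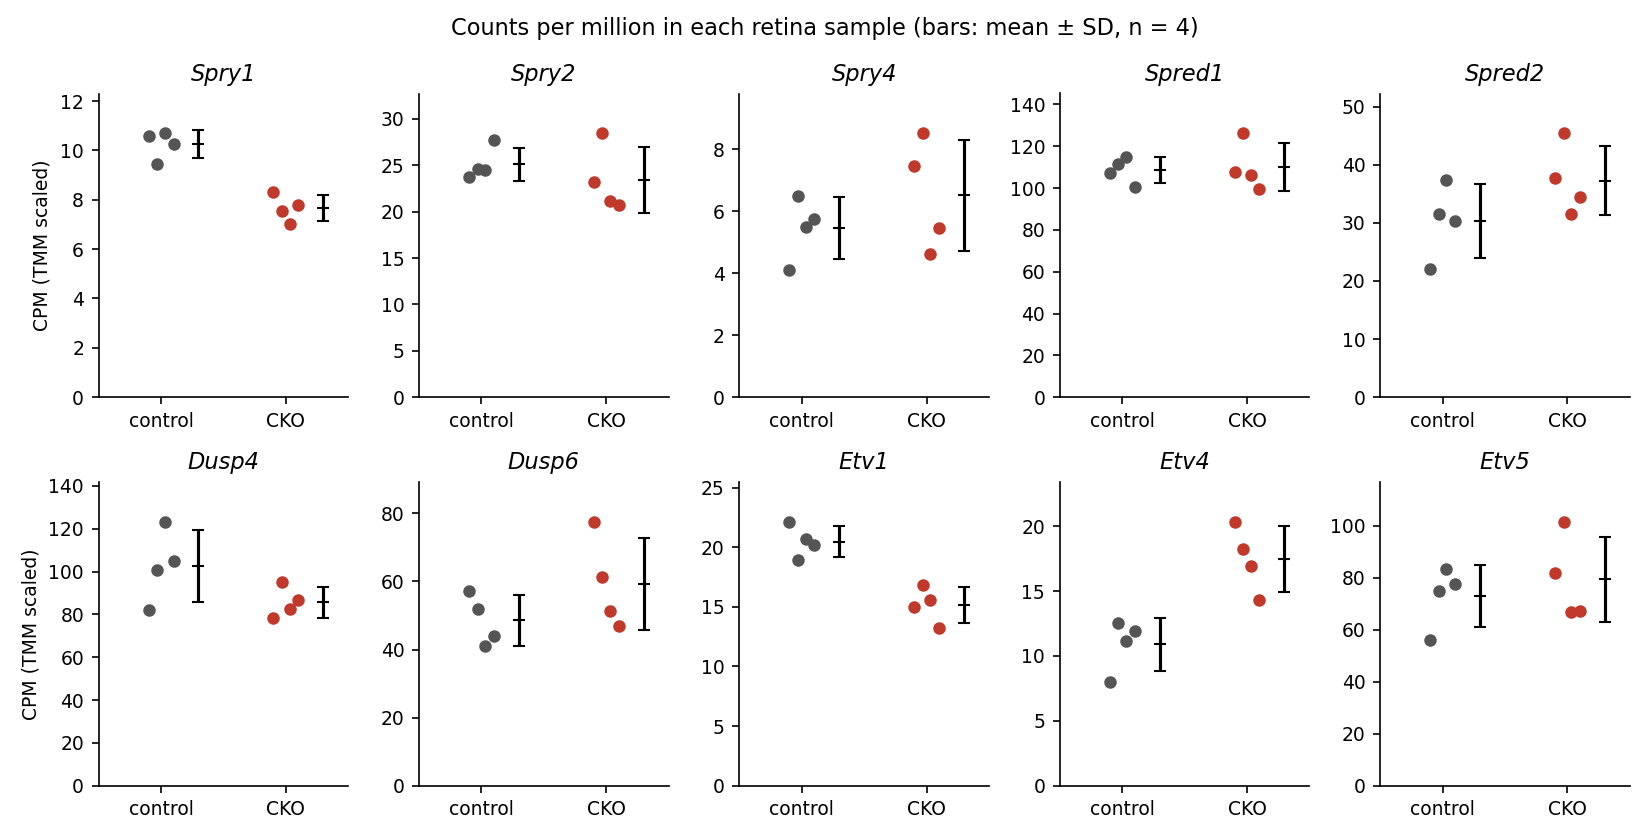
CPM in each retina sample for the 10 genes (vertical axis from 0, TMM scaled), with grey points for the 4 controls, red points for the 4 *Mettl3*-CKO samples and bars for the mean and SD. *Etv4* points of the 2 groups are separate with *Mettl3*-CKO higher, those of *Etv1* and *Spry1* are separate with *Mettl3*-CKO lower, and the other 7 genes overlap.

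Of the PEA3 factors, *Etv4* showed the largest change of the 10 genes. *Etv4* occupies 101769742 to 101785371 of chromosome 11 (GRCm38, minus strand). It measured 20.3, 18.2, 16.9 and 14.3 CPM across *Mettl3*-CKO replicates 1 to 4, against 7.97, 12.6, 11.2 and 11.9 CPM across control replicates 1 to 4. Every *Mettl3*-CKO sample was above every control, and control replicate 1 was the lowest of the 8. The means were 17.5 ± 2.52 CPM and 10.9 ± 2.03 CPM (SD, n = 4 each), a log2 fold change of 0.68 (SE 0.16, edgeR adjusted p = 0.0170), or a 1.60-fold rise. The call was kept in 7 of the 8 fits that left out 1 sample and was lost without *Mettl3*-CKO replicate 1 (log2 fold change 0.60, adjusted p = 0.0760, edgeR). Without control replicates 1 and 4 together it was 0.55 (adjusted p = 0.0353, edgeR).

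*Etv1* moved the other way. It lies on chromosome 12 from 38779380 to 38870484, on the plus strand. It measured 15.0, 16.9, 15.6 and 13.2 CPM across *Mettl3*-CKO replicates 1 to 4, against 22.1, 18.9, 20.7 and 20.2 CPM across control replicates 1 to 4. The lowest control was thus above the highest *Mettl3*-CKO sample. The means were 15.2 ± 1.53 CPM and 20.5 ± 1.33 CPM (SD, n = 4 each), a log2 fold change of -0.44 (SE 0.11, edgeR adjusted p = 0.0247), or 0.739 of the control level. The direction held in all 8 fits that left out 1 sample, with log2 fold changes from -0.49 to -0.37, but the call was kept in only 4 of them. It was lost without *Mettl3*-CKO replicate 1 (adjusted p = 0.0760), replicate 3 (0.0552) or replicate 4 (0.0645) and without control replicate 3 (0.0564), and also without control replicates 1 and 4 together (-0.39, adjusted p = 0.0715), all from edgeR.

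*Etv5*, on chromosome 16 from 22381309 to 22439719 (minus strand), is the most abundant of the 3 PEA3 factors in these retinas. It measured 81.7, 101.6, 67.0 and 67.3 CPM across *Mettl3*-CKO replicates 1 to 4, against 56.1, 75.1, 83.5 and 77.5 CPM across control replicates 1 to 4. *Mettl3*-CKO replicate 2 was above all controls and control replicate 1 was below all *Mettl3*-CKO samples, while the other 6 samples lay between 67.0 and 83.5 CPM. Its log2 fold change was 0.12 (SE 0.15, 95% interval -0.20 to 0.44, edgeR adjusted p = 0.680), and it was -0.02 without *Mettl3*-CKO replicate 2.

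Ratios inside a library do not depend on how libraries are scaled, so each pair of family members was also compared by its log2 ratio in each sample, 8 ratios in all. The log2 ratio of *Etv4* to *Etv1* was 0.44, 0.11, 0.12 and 0.12 across *Mettl3*-CKO replicates 1 to 4, against -1.46, -0.59, -0.88 and -0.76 across control replicates 1 to 4. *Etv4* counts thus exceeded *Etv1* counts in every *Mettl3*-CKO sample and were below them in every control. These counts are not corrected for gene length, which is 13296 bases for *Etv1* and 3104 bases for *Etv4*. Per kilobase of gene length, mean *Etv4* was above mean *Etv1* in both groups. The values were 3.51 against 1.54 CPM per kilobase in controls and 5.62 against 1.14 in *Mettl3*-CKO samples. The group means of the log2 ratio differed by 1.12, the largest difference of the 8 ratios. The *Etv5* to *Etv1* ratio was higher in *Mettl3*-CKO by 0.55, and the *Etv5* to *Etv4* ratio was lower, with a difference of -0.57. In these 3 ratios the groups did not overlap (two-sided exact permutation tests, p = 0.0286 each, which no split of 4 against 4 can go below). After correction for the 8 ratios these p-values became 0.0762, so none passed. The separation for *Etv4* to *Etv1* was already fixed by the single genes. Every *Mettl3*-CKO sample was above all controls for *Etv4* and below all controls for *Etv1*. That ratio thus adds no separate result. In the other 5 ratios the groups overlapped, with exact permutation p-values from 0.0571 (*Spry2* to *Spry1*, difference 0.31, and *Spry4* to *Spry1*, difference 0.65) to 0.171 (*Dusp6* to *Dusp4*, difference 0.52).

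**Figure D2:**
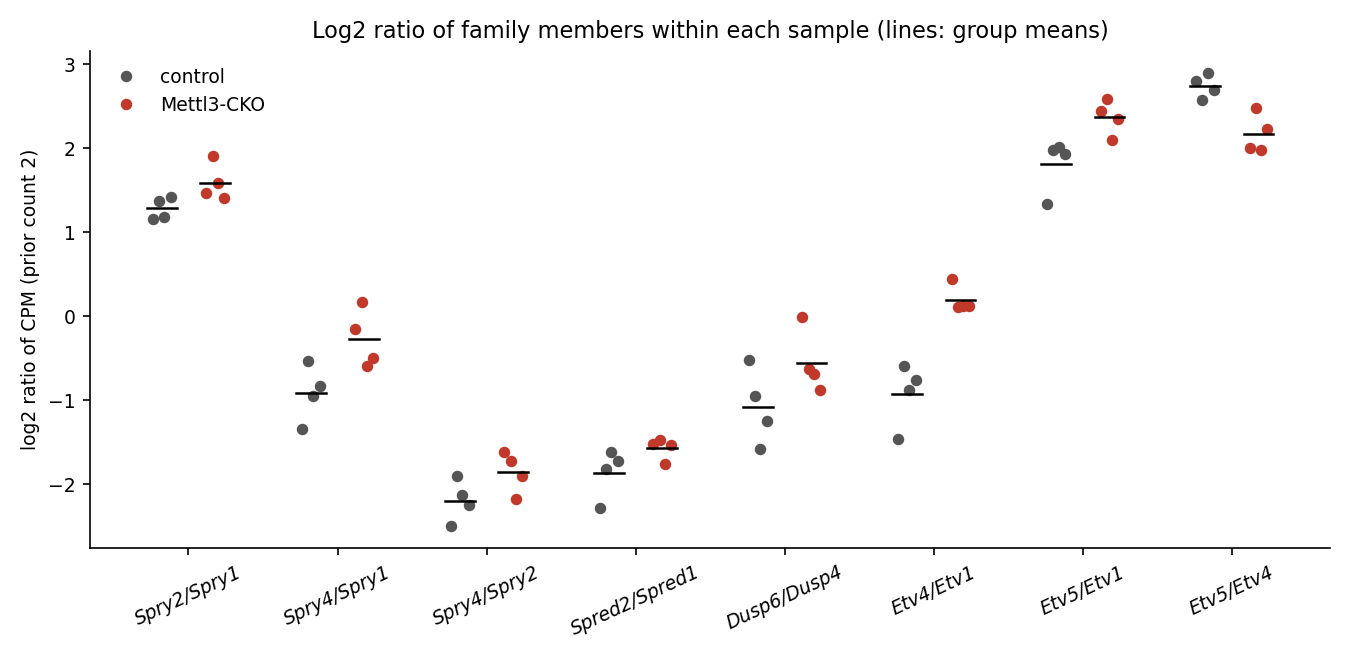
Log2 ratio of CPM (prior count 2) of 2 members of a family within each sample, for 8 ratios, with grey points for controls, red points for *Mettl3*-CKO samples and lines for group means. The groups are separate for *Etv4*/*Etv1*, where all *Mettl3*-CKO points lie above 0 and all control points below 0, and for *Etv5*/*Etv1* and *Etv5*/*Etv4*. Ratios are not corrected for gene length, so the side of 0 does not rank the genes by abundance.

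Of the Sprouty genes, which encode membrane-associated inhibitors of receptor tyrosine kinase signalling, *Spry1* fell and *Spry2* and *Spry4* did not pass the test. *Spry1* lies on chromosome 3 from 37639947 to 37644598, on the plus strand. It measured 8.29, 7.54, 7.01 and 7.77 CPM across *Mettl3*-CKO replicates 1 to 4, against 10.6, 9.43, 10.7 and 10.3 CPM across control replicates 1 to 4. No *Mettl3*-CKO sample reached the lowest control. The means were 7.65 ± 0.532 CPM and 10.2 ± 0.576 CPM (SD, n = 4 each), a log2 fold change of -0.42 (SE 0.12, edgeR adjusted p = 0.0437), or 0.747 of the control level. This call was close to the threshold. Of the 8 fits that left out 1 sample it was kept in 1, that without control replicate 1, while the log2 fold change stayed between -0.46 and -0.38 and the adjusted p ran from 0.0442 to 0.117 (edgeR). It was also lost without control replicates 1 and 4 together (log2 fold change -0.40, adjusted p = 0.113, edgeR), without the filter on low counts (adjusted p = 0.118, edgeR) and with the replicate number as a block (adjusted p = 0.0569, edgeR).

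Exons of *Spry1* overlap exons of *Gm42922*, a gene annotated on the opposite strand with 6 to 17 counts in a sample. Whether strand was used in counting is not given in the sources used here, so reads of the overlapping part cannot be assigned with certainty, and the *Spry1* value carries that limit. Over all samples the counts of *Gm42922* came to 6.86% of those of *Spry1*.

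*Spry2* (chromosome 14, 105891947 to 105896819, minus strand) was at 23.2, 28.5, 21.2 and 20.7 CPM across *Mettl3*-CKO replicates 1 to 4, against 23.7, 24.6, 24.4 and 27.7 CPM across control replicates 1 to 4. *Mettl3*-CKO replicate 2 was the highest of the 8 samples and the other 3 *Mettl3*-CKO samples were the lowest of the 8. The log2 fold change was -0.10 (SE 0.12, 95% interval -0.35 to 0.15, edgeR adjusted p = 0.639). *Spry4* (chromosome 18, 38586268 to 38601268, minus strand) was at 7.47, 8.52, 4.62 and 5.47 CPM across *Mettl3*-CKO replicates 1 to 4, against 4.12, 6.49, 5.51 and 5.74 CPM across control replicates 1 to 4. Replicates 1 and 2 of the *Mettl3*-CKO group were above all controls and replicates 3 and 4 were among them. *Spry4* had the fewest counts of the 10 genes and the widest interval, with a log2 fold change of 0.25 (SE 0.21, 95% interval -0.20 to 0.71, edgeR adjusted p = 0.512).

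*Spred1* and *Spred2* encode Sprouty-related proteins with an EVH1 domain that hold back RAS activation, SPRED1 by recruiting the RAS inhibitor neurofibromin to the membrane. *Spred1* (chromosome 2, 117121374 to 117182279, plus strand) was at 107.8, 126.3, 106.5 and 99.7 CPM across *Mettl3*-CKO replicates 1 to 4, against 107.4, 111.5, 115.04 and 100.6 CPM across control replicates 1 to 4. It had the narrowest interval of the 10 genes, with a log2 fold change of 0.02 (SE 0.09, 95% interval -0.18 to 0.22, edgeR adjusted p = 0.932). *Spred2* (chromosome 11, 19924375 to 20024026, plus strand) was at 37.7, 45.5, 31.5 and 34.5 CPM across *Mettl3*-CKO replicates 1 to 4, against 22.0, 31.5, 37.4 and 30.3 CPM across control replicates 1 to 4. Control replicate 1 was the lowest of the 8 samples, and the groups overlapped. The log2 fold change was 0.30 (SE 0.15, 95% interval -0.03 to 0.63, edgeR adjusted p = 0.253), and 0.17 without control replicate 1.

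The phosphatase genes *Dusp4* and *Dusp6* encode a nuclear and a cytoplasmic ERK phosphatase. *Dusp4* (chromosome 8, 34807297 to 34819894, plus strand) was at 78.4, 95.1, 82.5 and 86.8 CPM across *Mettl3*-CKO replicates 1 to 4, against 82.2, 100.5, 123.3 and 104.9 CPM across control replicates 1 to 4. Control replicates 2 to 4 were above all *Mettl3*-CKO samples and control replicate 1 was among them. The log2 fold change was -0.26 (SE 0.12, 95% interval -0.51 to -0.01, edgeR adjusted p = 0.187), and its unadjusted p of 0.0434 is one that 24.6% of all tested genes reached. Without control replicate 1 *Dusp4* passed the test (-0.35, adjusted p = 0.0163), as it did without control replicates 1 and 4 together (-0.39, adjusted p = 0.0318), both from edgeR. *Dusp6* (chromosome 10, 99263231 to 99267489, plus strand) was at 77.6, 61.3, 51.4 and 47.0 CPM across *Mettl3*-CKO replicates 1 to 4, against 57.2, 51.9, 41.02 and 44.1 CPM across control replicates 1 to 4. The 2 highest samples were *Mettl3*-CKO, the others overlapped, and the log2 fold change was 0.29 (SE 0.15, 95% interval -0.04 to 0.62, edgeR adjusted p = 0.270).

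**Figure D3:**
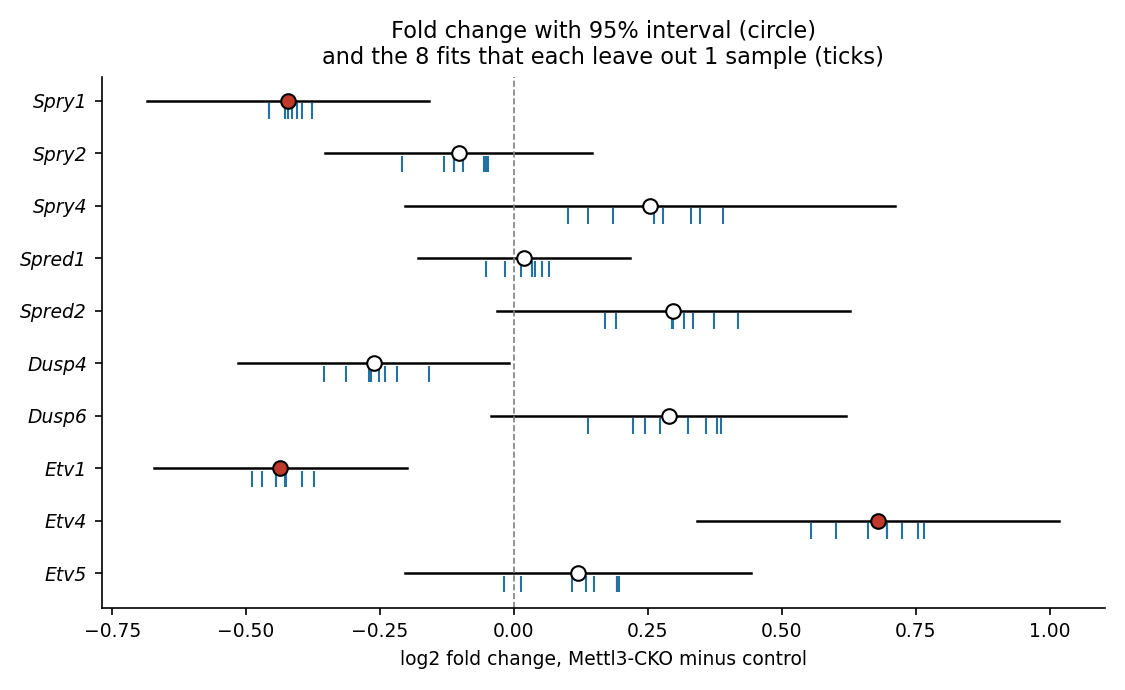
Log2 fold change of each gene (*Mettl3*-CKO minus control, horizontal axis) with its 95% interval as a line, a circle filled where the adjusted p was under 0.05, and blue ticks for the 8 fits that each left out 1 sample. *Etv4* is filled on the right, *Etv1* and *Spry1* on the left, and the ticks of *Etv5* and *Spred1* cross 0.

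Levels were set side by side per length, as CPM per kilobase of the deposited gene length (FPKM). In controls *Dusp4* was highest at 37.5 ± 6.16 FPKM (SD, n = 4), above the range of every other gene. *Etv5* (17.8 ± 2.88), *Spred1* (16.01 ± 0.917) and *Dusp6* (15.5 ± 2.35) followed with ranges that overlapped, and *Spry2* (12.03 ± 0.859) overlapped *Dusp6* but not *Spred1*. *Spred2* was at 6.57 ± 1.37 FPKM, *Spry1* at 3.53 ± 0.198 and *Etv4* at 3.51 ± 0.655 with overlapping ranges, *Etv1* at 1.54 ± 0.100 and *Spry4* at 1.19 ± 0.216. In *Mettl3*-CKO retinas *Etv4*, at 5.62 ± 0.812 FPKM, stood above *Spry1*, at 2.63 ± 0.183, and *Etv1*, at 1.14 ± 0.115, was the lowest of the 10, below *Spry4* at 1.42 ± 0.390, whose range overlapped its own.

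The promoters of the 2 genes that fell are shown because their letters bear on the name of the group, which holds ETS factors and their proposed targets. They were read from RefSeq (GRCm38.p6) from 250 bases before to 50 bases after a transcript start, and capitals mark the core GGAA bound by ETS proteins or its reverse complement TTCC. For *Etv1*, which has 2 such windows, the one nearest the deposited gene start is given.
Spry1, chr3:37639697-37639996, plus strand: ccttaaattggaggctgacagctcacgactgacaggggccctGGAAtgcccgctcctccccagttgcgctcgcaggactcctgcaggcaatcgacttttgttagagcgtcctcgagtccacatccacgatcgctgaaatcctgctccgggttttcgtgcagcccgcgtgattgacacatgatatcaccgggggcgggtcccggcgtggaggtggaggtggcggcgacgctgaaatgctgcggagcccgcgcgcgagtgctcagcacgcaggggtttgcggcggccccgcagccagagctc
Etv1, chr12:38779832-38780131, plus strand: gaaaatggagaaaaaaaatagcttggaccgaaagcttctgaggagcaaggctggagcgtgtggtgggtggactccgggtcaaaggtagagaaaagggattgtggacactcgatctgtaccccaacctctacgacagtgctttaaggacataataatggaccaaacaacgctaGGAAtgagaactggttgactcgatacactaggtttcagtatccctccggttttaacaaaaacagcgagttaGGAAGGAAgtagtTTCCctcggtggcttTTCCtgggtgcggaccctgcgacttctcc
The *Spry1* window holds 1 core and the *Etv1* window 5. The number of cores that a window of this length usually holds was not counted, so neither can be called few or many. Windows were found for 7 of the 10 genes, 9 windows in all, and 8 of the 9 hold the core on either strand, as do 96.0% of all 32851 RefSeq windows of this length. The longer ETS motif CCGGAAGT, which contains the core, was in 0 of the 9 windows and in 3.89% of all windows. The AP-1 motif TGANTCA was in 0 of 9 and 7.81% of all, the cAMP response element TGACGTCA in 0 of 9 and 1.79%, and the CArG box bound by SRF in 0 of 9 and 1.63%. Absence of a motif says only that these letters are not in the window.

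Other genes of the pathway were taken from 6 lists with 106 genes, of which 95 were tested. Of these, 2 were called higher and 4 lower, or 6.32% of those tested, a share below the 10.5% of all tested genes that were called. An unadjusted p under 0.05 (edgeR) was reached by 23 of the 95, beside 24.6% of all tested genes. Counts at that threshold in each list are to be read beside this share. Among secreted FGFs, 11 of 18 were tested, 1 was called higher and none lower (edgeR, 3 at an unadjusted p under 0.05; DESeq2 called 1 lower and limma voom none). The called ligand was *Fgf15*, an FGF of RPCs that is also in the list of RPC markers. It measured 33.7, 34.4, 29.4 and 23.6 CPM across *Mettl3*-CKO replicates 1 to 4, against 8.35, 19.0, 15.0 and 15.0 CPM across control replicates 1 to 4. All *Mettl3*-CKO samples were above all controls, with a log2 fold change of 1.08 (SE 0.20, edgeR adjusted p = 0.00612), and the call was kept in all 8 fits that left out 1 sample. Without control replicates 1 and 4 together it was 0.83 (edgeR adjusted p = 0.00558).

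Of 9 FGF and EGF receptor genes tested, none was called higher and 1 lower by edgeR, with 3 at an unadjusted p under 0.05, and DESeq2 and limma voom called the same numbers. The gene was *Erbb3*, a neuregulin receptor, at 0.332 to 0.850 CPM in *Mettl3*-CKO samples and 1.34 to 1.69 CPM in controls, with no more than 31 counts in any sample. Its log2 fold change was -1.17 (SE 0.31, edgeR adjusted p = 0.0327), and the call was kept in 1 of the 8 fits that left out 1 sample, that without control replicate 1. It was lost without control replicates 1 and 4 together (-1.21, edgeR adjusted p = 0.0617). Of the 23 genes of the RAS-MAPK core, from adaptors through RAS, RAF, MEK and ERK to RSK kinases, none was called by edgeR (4 at an unadjusted p under 0.05) or limma voom, and DESeq2 called 1 lower. Their log2 fold changes lay between -0.27 and 0.29 with a median of -0.05.

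A further list of 22 genes, grouped as feedback inhibitors, was broad. *Dusp10*, for example, acts on other kinases, so counts over this list do not describe ERK feedback inhibitors alone. Of the 22 genes, 1 was called higher and 2 lower by edgeR, with 7 at an unadjusted p under 0.05. Their median log2 fold change was 0.03. DESeq2 called 3 higher and 3 lower, limma voom 1 and 2, and edgeR scaled by library totals called 3 higher. *Il17rd*, which encodes the membrane inhibitor SEF, was at 31.1, 26.7, 27.4 and 31.6 CPM across *Mettl3*-CKO replicates 1 to 4, against 19.7, 22.9, 24.6 and 23.6 CPM across control replicates 1 to 4. Every *Mettl3*-CKO sample was above every control, with a log2 fold change of 0.36 (SE 0.10, edgeR adjusted p = 0.0414), and the call was kept in 2 of the 8 fits that left out 1 sample. It was lost with the replicate number as a block (0.36, edgeR adjusted p = 0.0610) and without control replicates 1 and 4 together (0.30, edgeR adjusted p = 0.122). *Dusp10*, a phosphatase of the stress kinases JNK and p38, was at 9.01 to 12.4 CPM against 15.7 to 23.4 CPM in controls, a log2 fold change of -0.75 (SE 0.15, edgeR adjusted p = 0.00807) that was called in all 8 such fits. *Dusp5*, a nuclear ERK phosphatase, was at 35.8 to 45.6 CPM against 47.6 to 59.4 CPM, a log2 fold change of -0.43 (SE 0.11, edgeR adjusted p = 0.0259), called in 5 of the 8. Without control replicates 1 and 4 together both were called, *Dusp10* at -0.69 (edgeR adjusted p = 0.0111) and *Dusp5* at -0.45 (edgeR adjusted p = 0.0291).

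Of the immediate early and growth-response genes, 16 of 19 were tested. None was called higher and 1 lower by edgeR, with 5 at an unadjusted p under 0.05, while DESeq2 called 0 higher and 2 lower and limma voom 0 higher and 1 lower. Control replicate 1 was the highest of the 8 samples for *Fos*, *Fosb*, *Fosl2*, *Junb*, *Egr1*, *Ier2* and *Ier3*. It was not the highest for the other tested genes of the list. With that sample included, the median log2 fold change was -0.23, beside -0.01 over all tested genes, and 14 of the 16 were below 0. The mean summed level of the list was nevertheless higher in *Mettl3*-CKO retinas, with a ratio of means of 1.18. The groups overlapped, at 1253 to 1790 CPM in *Mettl3*-CKO samples against 1066 to 1394 CPM in controls. Most of the sum was *Ccnd1*, the cyclin D1 gene of cycling cells, at 1261 against 993 CPM (log2 fold change 0.35, adjusted p = 0.158 from edgeR). *Ccnd1* is also in the RPC list and was named after its values had been seen. The called gene was *Junb*, a component of AP-1, at 6.26 to 7.30 CPM in *Mettl3*-CKO samples and 8.28 to 12.9 CPM in controls, with a log2 fold change of -0.60 (SE 0.15, edgeR adjusted p = 0.0272) that was called in 3 of the 8 fits that left out 1 sample. Without control replicates 1 and 4 together it was -0.53 (edgeR adjusted p = 0.0422). Of 14 other ETS factors tested, none was called by edgeR (1 at an unadjusted p under 0.05) or limma voom, DESeq2 called 1 higher, and the median log2 fold change was 0.03.

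**Figure D4:**
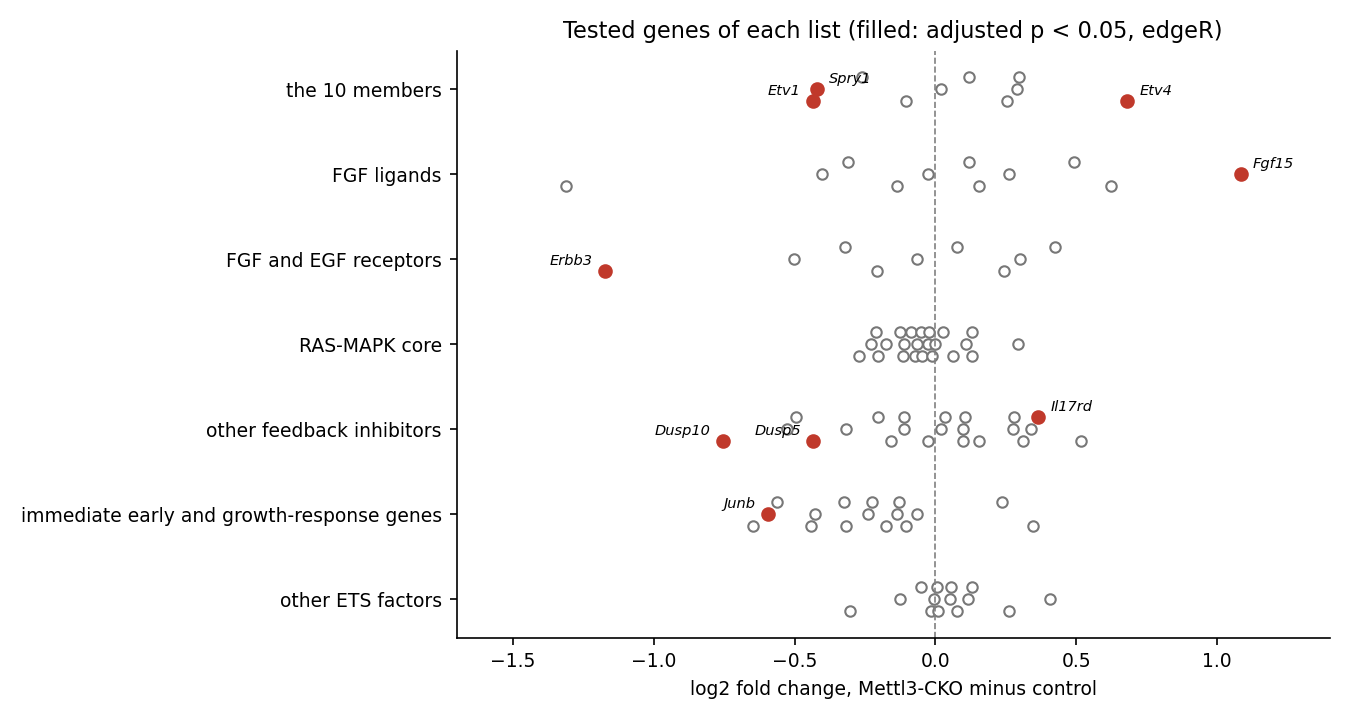
Log2 fold change (*Mettl3*-CKO minus control) of every tested gene of the 10 members and of 6 pathway lists, 1 circle a gene, filled and named where the adjusted p was under 0.05 in edgeR. Filled genes lie on both sides of 0, *Fgf15* at 1.08 and *Erbb3* at -1.17 being farthest out, and the 23 genes of the RAS-MAPK core stay between -0.27 and 0.29.

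Cell type markers moved between the groups as well. In bulk samples, fewer cells of a type and less RNA per cell cannot be told apart. Of 11 RPC markers, 4 were called higher and none lower (edgeR, 8 at an unadjusted p under 0.05), and their summed level was 3674 to 5004 CPM in *Mettl3*-CKO samples and 2749 to 3562 CPM in controls, a ratio of means of 1.36. Within the *Mettl3*-CKO group, replicates 1 and 2 had the highest RPC sums and also the highest levels of 7 of the 10 genes, *Spry2*, *Spry4*, *Spred1*, *Spred2*, *Dusp6*, *Etv4* and *Etv5*. Among controls, replicate 1 had the lowest RPC sum and the lowest level of 6 of the 10, *Spry2*, *Spry4*, *Spred2*, *Dusp4*, *Etv4* and *Etv5*, while it was the highest control for *Dusp6* and *Etv1*. The share of all tested genes that follow the same order was not counted. These numbers therefore do not set the 10 genes apart from other genes.

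Divided by the RPC sum of the same sample, a ratio chosen after the values had been seen, *Etv4* was at 3.64 to 4.27 CPM per 1000 CPM of RPC markers in *Mettl3*-CKO samples and 2.90 to 3.59 in controls. The ranges remained apart, and the ratio of means was 1.19 where that of the unadjusted levels was 1.60. On the same scale *Spry1* was at 1.51 to 2.11 against 2.65 to 3.85 and *Etv1* at 3.15 to 3.68 against 5.31 to 8.06, ratios of means of 0.551 and 0.540. Of the 10 genes, 1 was then higher without overlap, 6 were lower without overlap and 3 overlapped. The divisor was itself higher in *Mettl3*-CKO samples, so this scale moved all genes down, with a median ratio of means of 0.734 over all tested genes. On it 35.4% of all tested genes did not overlap, 1.13% higher and 34.3% lower, so the number of members lower says little about these genes. The part of RPC markers in the results of the 10 genes was not tested.

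**Figure D5:**
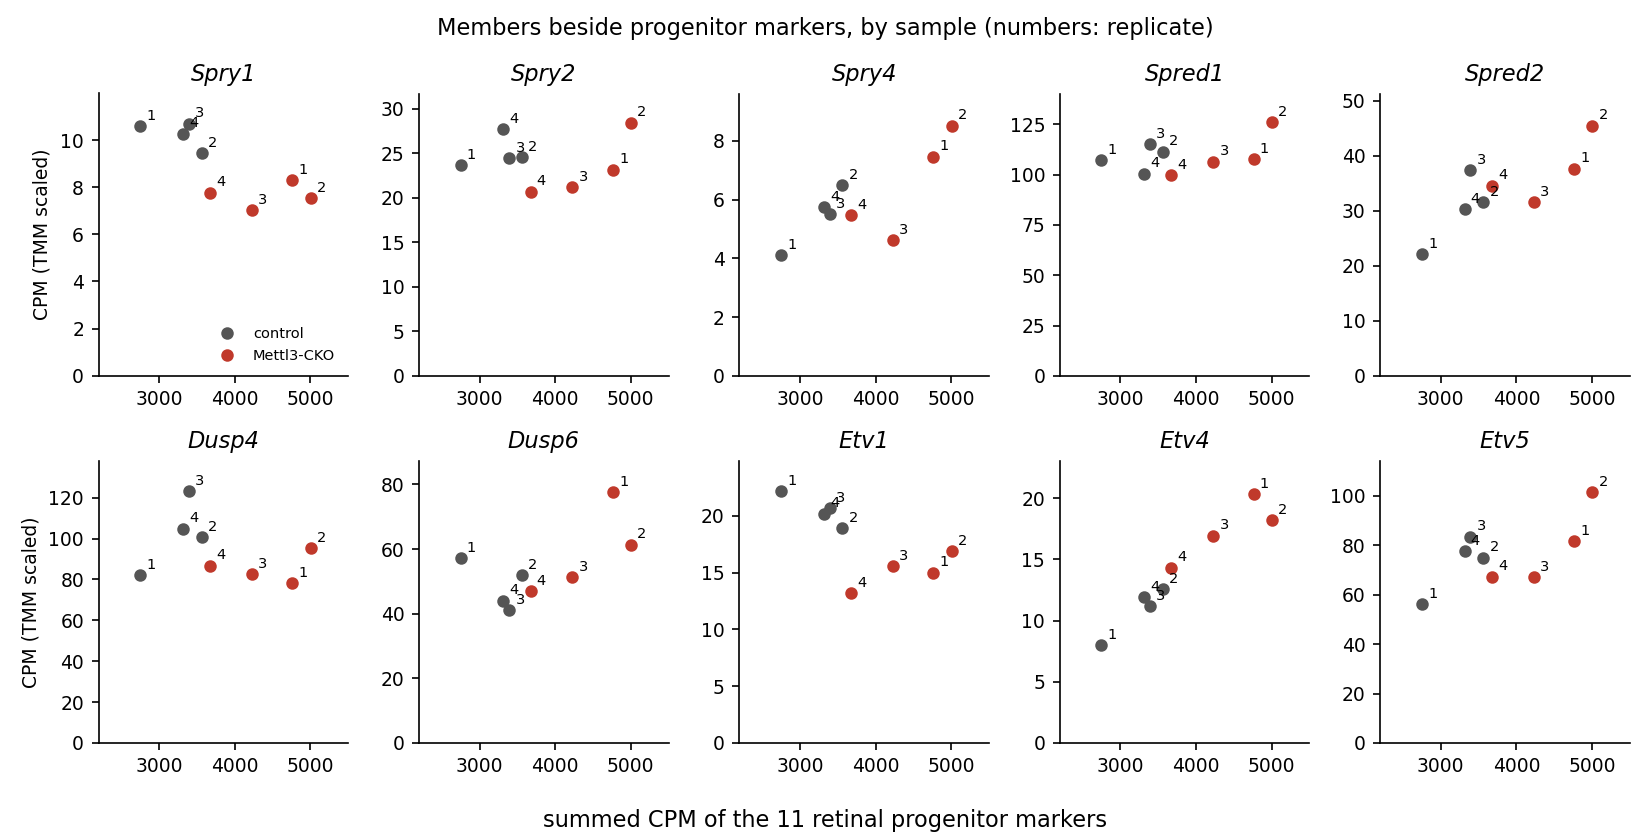
CPM of each of the 10 genes (vertical axis, from 0) against the summed CPM of 11 RPC markers in the same sample (horizontal axis), with grey points for controls, red points for *Mettl3*-CKO samples and numbers for replicates. The 4 *Mettl3*-CKO samples lie to the right at 3674 CPM or more, the leftmost sample, control replicate 1, is the lowest for *Etv4*, and *Etv1* and *Spry1* of *Mettl3*-CKO samples lie below those of all controls.

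Lists for several other cell types held markers that fell. Of 8 rod markers 5 were called lower and none higher, with a summed level of 1539 to 2894 CPM against 2808 to 4311 CPM in controls, and of 11 tested Müller glial markers 2 were called lower and 1 higher (2489 to 2746 CPM against 2591 to 3466 CPM). Of 5 astrocyte markers 2 were called lower and none higher, with 54.7 to 83.7 CPM against 95.1 to 215 CPM, and of 9 tested vessel markers 7 were called lower and none higher. The vessel sum overlapped between the groups, at 542 to 640 CPM against 563 to 659 CPM, and *Kdr* (log2 fold change 0.02) took most of it in every sample. Without *Kdr*, a choice made after its values had been seen, the sum was 18.2 to 24.3 CPM against 35.2 to 81.9 CPM. None of the 7 microglial markers was called (edgeR, 1 at an unadjusted p under 0.05), with 64.1 to 93.2 CPM against 37.03 to 119 CPM. Control replicate 1 set the top of the astrocyte and microglial control ranges, at 215 and 119.4 CPM. The other controls were at 95.1 to 119.2 CPM and 37.03 to 58.4 CPM. Control replicate 1 was also the highest control for every vessel marker except *Kdr*. No marker of these lists was at 0 in all samples. The part of the rod, astrocyte and vessel markers in the lower levels of *Spry1* and *Etv1* was not tested. Lens markers were at 4.99 to 15.9 CPM in *Mettl3*-CKO samples. Without control replicate 4, the sample with lens RNA, log2 fold changes were -0.42 for *Spry1* (adjusted p = 0.0838), -0.44 for *Etv1* (adjusted p = 0.0493) and 0.72 for *Etv4* (adjusted p = 0.0294), all from edgeR.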

How the data were processed

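Bulk RNA-seq of 4 *Mettl3*-CKO and 4 control retinal samples was analysed from the deposited table of raw counts per gene. Per the methods, the authors filtered paired-end reads from NEBNext Ultra libraries, aligned them by Hisat2 to GRCm38 and obtained gene counts from featureCounts. The annotation release and the strand setting are not given in the sources used here. Of 54532 gene IDs, 54495 were found in GENCODE vM21, from which overlaps between genes were read.

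The main test was that of edgeR 4.0.16 under R 4.3.3 (filterByExpr, TMM scaling, glmQLFit and glmQLFTest, Benjamini-Hochberg adjustment over 17998 genes, threshold 0.05). Standard errors were derived from the F statistic and the log2 fold change. Alternatives were limma 3.58.1 (voom) and DESeq2 1.42.0, with other scalings, filters, thresholds, a replicate block and samples left out. The biological coefficient of variation was 15.0%. CPM are TMM scaled, and FPKM is CPM per kilobase of deposited gene length. Log2 ratios used a prior count of 2 and exact permutation over 70 splits. Within groups no pair of samples was identical, and the lowest chi-square was 5.01 per gene.

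The genes, lists and tests were chosen with earlier results of these data known. All 10 members are named, as are called genes of the pathway lists with a mean log2 CPM of at least 0, at most 5 a list. On counts simulated for this comparison over 17998 genes, of which 17658 passed the filter, edgeR recovered 35.8% of 1.5-fold, 71.6% of 2-fold and 95.5% of 4-fold changes, with 4 false calls. The simulation changed 67, 67 and 66 genes at these folds, far fewer than the 1897 genes called in the data. The recovered shares and false calls need not hold for the data. The list of retinal ganglion cell markers had 1 of 7 called higher and 0 lower, that of amacrine markers 0 and 1 of 6, that of erythrocyte markers 0 and 2 of 3 tested, and that of lens markers 0 and 3 of 5 tested.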

Additional observations from a re-analysis of the deposited data

Results flagged for a closer look

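Dixon's test for a single distant sample was applied to the 10 genes and the 8 ratios in both groups. It marked 2 of 36 groups, about the 1.8 that chance alone would mark. For the log2 ratio of *Etv4* to *Etv1*, *Mettl3*-CKO replicate 1 stood at 0.44 while the other 3 lay between 0.11 and 0.12. For that of *Etv5* to *Etv1*, control replicate 1 stood at 1.34 while the other 3 lay between 1.94 and 2.01.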

How the results depend on the processing

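DESeq2, limma voom and the RLE, upper quartile and library-total scalings called the same 3 members in the same direction. The number of members called lower was 1 without the low-count filter and 1 with the replicate block, *Etv1* in both, and 1 without control replicates 1 and 4 together, which was *Dusp4*. With at least 1.5-fold it was 0. At an adjusted p under 0.01, 0 members were called higher and 0 lower, beside 439 and 147 of all genes, and with at least 1.5-fold 589 and 339 of all genes were called. Of the pathway lists, DESeq2 called 5 higher and 8 lower and library totals 4 higher, while 1 was called higher without control replicates 1 and 4, 1 higher and 1 lower at 0.01, and 1 higher with at least 1.5-fold. *Spred1* and *Etv5*, not called, turned to -0.044 and -0.0011 without control replicates 1 and 4, and over the fits that left out 1 sample ran from -0.052 to 0.065 and from -0.019 to 0.20. Over those fits 0 to 1 members were called higher and 0 to 3 lower, 509 to 1882 of all genes higher and 185 to 1289 lower, and 1 to 5 pathway genes higher and 1 to 8 lower, the omission of *Mettl3*-CKO replicate 1 giving the fewest over all genes and that of control replicate 1 the most. Differences in log2 ratio ran from 0.20 to 0.37 (*Spry2*/*Spry1*), 0.50 to 0.77 (*Spry4*/*Spry1*), 0.39 to 0.64 (*Etv5*/*Etv1*) and -0.67 to -0.50 (*Etv5*/*Etv4*), with exact permutation p-values on both sides of 0.05. A prior count of 0.5 kept every ratio on its side of the threshold. In the replicate block fit, same-numbered samples shared no known litter, and their deviations correlated at -0.11, 0.22, -0.11 and 0.25 for numbers 1 to 4. Differently numbered samples correlated at -0.23 to 0.26. With so few samples in a group, these values cannot settle whether the numbers pair the samples. Scaling moved the median of all genes by less than 0.1.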

Other observations

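The remaining Sprouty and Spred genes, chosen after their values had been seen, did not pass the test. *Spred3* was at 39.6, 35.4, 27.6 and 32.3 CPM across *Mettl3*-CKO replicates 1 to 4, against 19.8, 26.3, 31.4 and 29.1 CPM across control replicates 1 to 4, a log2 fold change of 0.34 (SE 0.15, edgeR adjusted p = 0.169) with overlapping groups and the lowest value in control replicate 1, as for *Spred2*. *Spry3* was at 2.73 to 4.62 CPM against 2.48 to 2.996 CPM in controls, with a log2 fold change of 0.27 (SE 0.22, edgeR adjusted p = 0.491).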
